A study of Homo sapiens with 30 samples.

Results

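The 8 genes RING1, RNF2, RYBP, YAF2, PHC1, PHC2, PHC3 and SCMH1 encode core and accessory subunits of Polycomb repressive complex 1 (PRC1), and they were taken as listed, out of 20033 protein-coding genes. The question was whether RING1 and RNF2, the proteins, were bound at the genes of their own complex. Each gene was examined over its body and 2 kb beyond both ends (build hg38) for overlapping CUT&RUN peaks, recording presence, position, width and the fold of signal over background that the authors' peak caller gave. In CUT&RUN a nuclease is brought to an antibody on chromatin and releases the bound DNA fragments. The libraries used here came from wild-type neural progenitor cells derived from the human embryonic stem cell line H9 and grown as a monolayer in N2/B27/FGF medium. There were 2 libraries with an antibody against RING1 and 2 with an antibody against RNF2, and 2 peak lists for each antibody. A RING1 list and an RNF2 list share a set number in their names. The pairs are called set A and set B, because the labels do not tie a set to a replicate or say whether the replicates were separate cultures. All libraries derive from 1 stem cell line, and libraries of other antibodies or edited genotypes were not analysed here. Peak lists hold no expression values, so the labelled cell type could not be checked against marker genes.

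PRC1 places a single ubiquitin on a lysine of histone H2A. RING1 and RNF2 are paralogous RING finger proteins, and either one forms the catalytic core together with a PCGF protein. RYBP and YAF2 are paralogous zinc finger proteins of variant PRC1, and they occupy the site on RING1 or RNF2 that CBX proteins use in canonical PRC1. The polyhomeotic proteins PHC1, PHC2 and PHC3 belong to canonical PRC1 and join complexes to each other through a SAM domain. SCMH1 is a SAM and MBT domain protein related to fly Sex comb on midleg, which in fly binds polyhomeotic.

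The lists differ in length, which bears on every count. On the assembled chromosomes, the RING1 lists held 12891 peaks (set A) and 659 peaks (set B), and the RNF2 lists 16263 and 5901. The sources used here give no read depth. A gene without a peak is therefore a gene at which none was called, and no counting interval was computed.

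Most of the 8 genes carried an RNF2 peak in set A, and only PHC2 carried a peak in set B. RNF2 peaks of set A were at 7 genes, all but RING1 itself, where 60.7% of all protein-coding genes had one. RING1 peaks of set A were at 5 genes (RNF2, RYBP, PHC2, PHC3 and SCMH1), beside 50.5% of all genes. In set B, RING1 was at 0 of the 8 genes, beside 1.58% of all genes, and RNF2 was at PHC2 alone, beside 25.2% of all genes. With 8 genes, 1 gene is 12.5 percentage points, and none of these shares was tested against the background. At a −log10 q (the significance of a peak after correction for multiple testing) of at least 5, set A kept RING1 at 0 members and RNF2 at RYBP alone, beside 8.74% and 17.1% of all genes. By q the member peaks ran from one above 3.87% of its list, at PHC1, to one above 87.4%, at RYBP. No member had RING1 in both sets (1.57% of all genes did), and 1 member, PHC2, had RNF2 in both sets (23.9% of all genes did). By the pattern over the 4 lists, RNF2, RYBP, PHC3 and SCMH1 had both antibodies in set A and neither in set B, a pattern of 25.6% of all genes. YAF2 and PHC1 had RNF2 of set A alone, as did 11.2%. PHC2 added RNF2 of set B to both lists of set A, as did 20.4%, and the RING1 gene had no peak in any list, as did 35.3%.

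**Figure D1:**
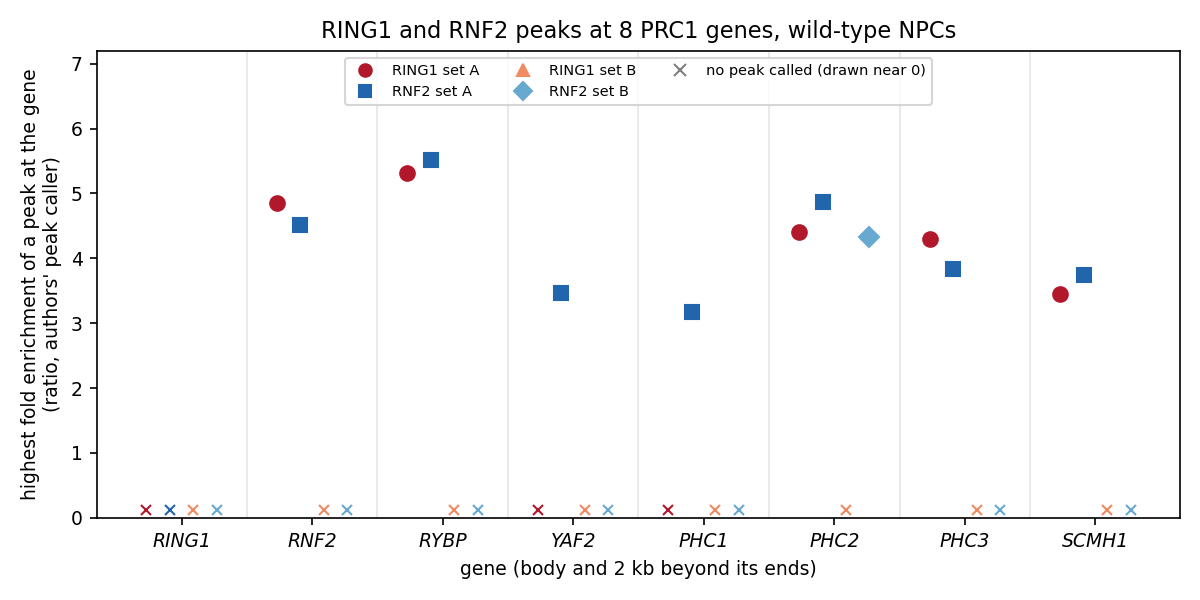
Highest fold enrichment (ratio) of a called peak at each of the 8 genes, in each of the 4 peak lists; crosses near 0 mark a list with no peak at the gene. Values lie between 3.17 and 5.51, set B has a value at PHC2 only, and the RING1 gene has none.

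Each of the 5 members with a RING1 peak in set A had at least 1 RNF2 peak of set A over it. Of all 10108 genes with a RING1 peak in set A, 91.4% had such an overlap, so the members show here what genes with a RING1 peak mostly show. Over all protein-coding genes, with or without a RING1 peak, the share with an overlap was 46.1% in set A and 1.45% in set B, where 0 members had one. At SCMH1 both peaks were of similar width and shared 865 bp, which is 87.1% of the RING1 peak and 86.4% of the RNF2 peak. At RYBP the RNF2 peak of 1335 bp lay wholly inside the RING1 peak of 1473 bp. At RNF2 and PHC3 the RNF2 peak was the wider one: 614 bp were shared at RNF2, 82.6% of the RING1 peak and 42.3% of the RNF2 peak, and 464 bp at PHC3, 90.4% and 33.4%. Whether both lists of a set used the same control is not known here, and the part of such a control in the overlap was not tested.

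In all, 20 peaks lay at the 8 genes, 10 of them at PHC2. Of these, 16 lay within 2 kb of an annotated transcription start of the gene and 8 covered one. For RING1 of set A this was 6 of 8 peaks within 2 kb and for RNF2 of set A 9 of 11. Among all pairs of a peak and a protein-coding gene with an annotated start, 75.2% and 74.9% lay within 2 kb in these lists. A start was covered by 3 of the 8 RING1 peaks and 4 of the 11 RNF2 peaks of set A, beside 54.7% and 62.1% of all pairs. The single peak of set B covered one as well, beside 49.4% of the pairs of that list. None of the 20 peaks met the window of another protein-coding gene.

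**Figure D2:**
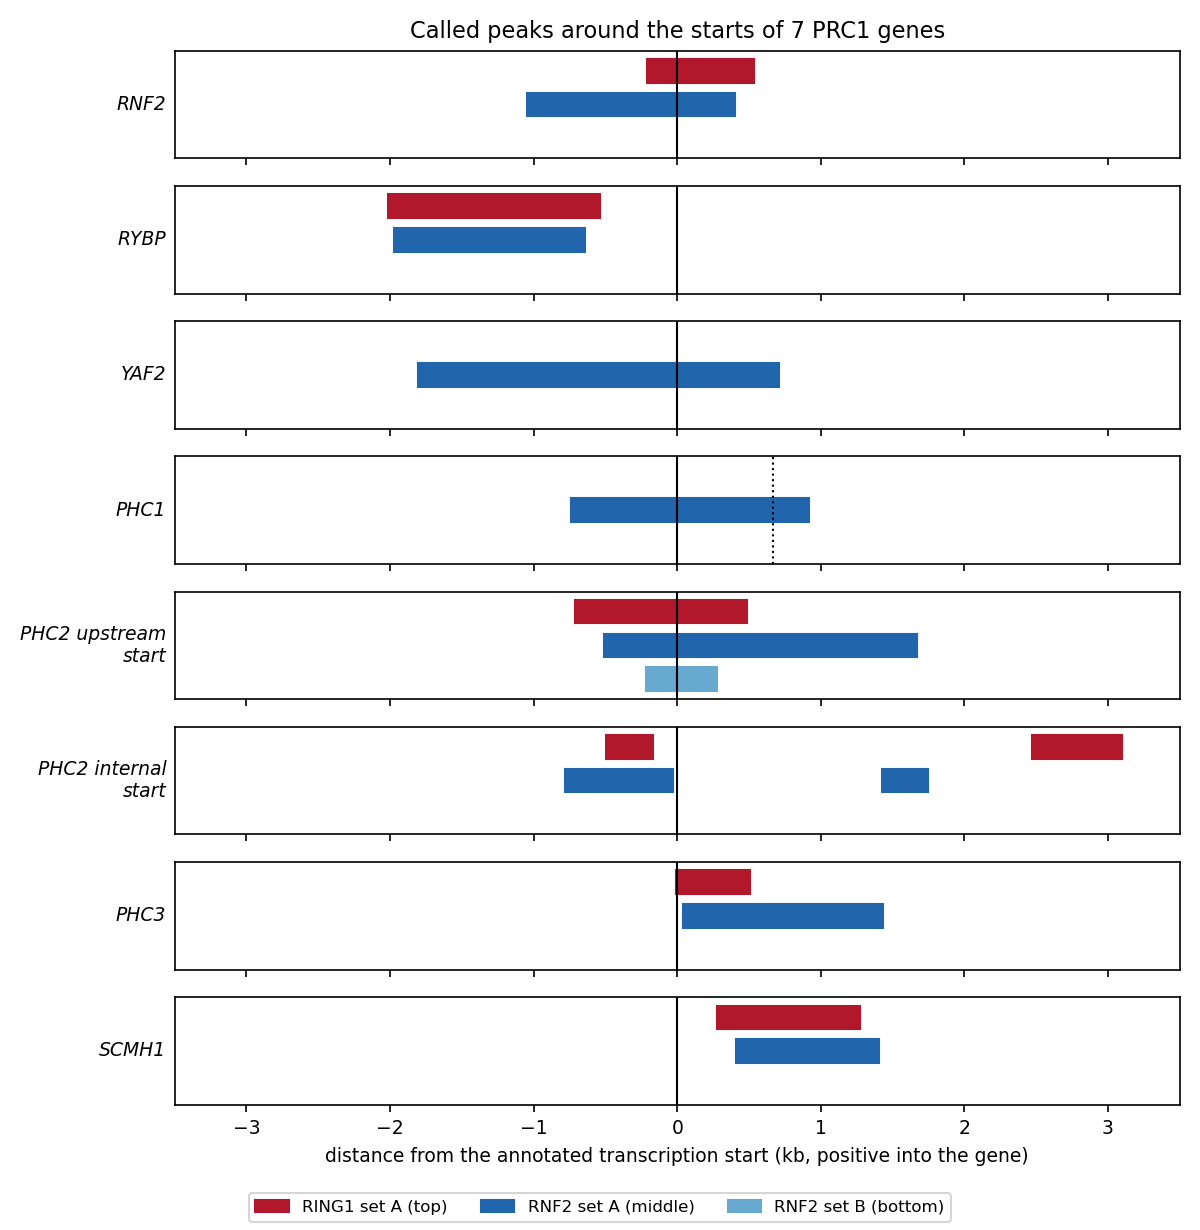
Called peaks around the annotated starts (solid line at 0; the dotted line is the further start of PHC1) of the 7 genes with a peak, in kb, positive into the gene. RYBP peaks end upstream of the start, SCMH1 peaks begin downstream of it, and at the upstream start of PHC2 3 lists have a peak.

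RING1 and RNF2 are the paralogs that give PRC1 its ligase activity. The RING1 gene (chromosome 6, 33208500 to 33212716, plus strand, 4217 bp) had no peak in any of the 4 lists. The RNF2 gene (chromosome 1, 185045558 to 185102603, plus strand, 57046 bp) had its RING1 peak from 185045350 to 185046092 and its RNF2 peak from 185044514 to 185045963. Both came from set A and both covered the start. Their fold enrichments were 4.86 for RING1, above 80.5% of the peaks of that list, and 4.51 for RNF2, above 67.3% of its list. The −log10 q values were 4.62 and 3.99. In set B the nearest RNF2 peak lay 70772 bp from the RNF2 gene, at NIBAN1, and the nearest RING1 peak 4806748 bp away, at LHX4.

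The promoter windows of both paralog genes, from 250 bases before to 50 after the start (RefSeq, GRCh38.p14), are shown because they are alike in CpG content while only 1 of them was met by peaks. CpG dinucleotides are in capitals, 5′ to 3′ in the direction of the gene.
RING1, chr6:33208250-33208549, plus strand: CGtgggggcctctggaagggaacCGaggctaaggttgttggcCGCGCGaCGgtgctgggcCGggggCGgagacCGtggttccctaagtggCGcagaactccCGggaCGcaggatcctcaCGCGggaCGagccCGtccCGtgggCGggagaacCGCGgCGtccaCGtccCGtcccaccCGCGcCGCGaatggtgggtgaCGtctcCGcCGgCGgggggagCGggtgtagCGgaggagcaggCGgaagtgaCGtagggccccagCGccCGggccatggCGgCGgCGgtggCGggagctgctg
RNF2, chr1:185045308-185045607, plus strand: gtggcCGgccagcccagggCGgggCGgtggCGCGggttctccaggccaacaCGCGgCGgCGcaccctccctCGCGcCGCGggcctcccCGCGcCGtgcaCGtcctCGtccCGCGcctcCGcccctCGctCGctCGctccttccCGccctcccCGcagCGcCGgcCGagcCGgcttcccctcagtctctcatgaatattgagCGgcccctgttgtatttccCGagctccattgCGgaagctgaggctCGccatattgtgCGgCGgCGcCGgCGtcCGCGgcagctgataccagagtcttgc
Both windows hold 41 CpG dinucleotides. The CpG ratio, observed over expected from the C and G content, was 1.028 for RING1 and 1.05 for RNF2, higher than in 91.9% and 93.8% of 22174 promoter windows, those of 15841 protein-coding genes. The G and C content was 74.3% and 73.0%.

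The missing peak at the RING1 gene has to be read with its surroundings. The gene lies in a stretch of 923643 bp (chromosome 6, 32666720 to 33590362) without a peak in any list, which holds 34 protein-coding genes. Genes near RING1 in this stretch include COL11A2, a collagen gene, RXRB, a retinoid receptor gene, SLC39A7, a zinc transporter gene, and HSD17B8. BRD2, a bromodomain gene, and DAXX, a histone chaperone gene, are also in it. Of the 34 genes, 14 had a promoter CpG ratio of at least 0.75, a threshold chosen after the data were seen. Across the genome, 9081 protein-coding genes had such a promoter, and in set A 68.1% of them had RING1 and 81.5% had RNF2. The stretch is part of an interval of 5.11 Mb (28475455 to 33590362) over the major histocompatibility complex, with 173 protein-coding genes. RING1 of set A had 0 peaks in this interval and RNF2 of set A had 3, at HLA-DQB1, HLA-DRB1 and HLA-DRB5, and both lists of set B had 0. The stretch and the interval were drawn from where peaks were missing, so these counts describe them and test nothing. Peak numbers run without a break in all 4 lists. Build hg38 carries alternate contigs of this complex, and the RING1 and RNF2 lists of set A hold 3 and 2 peaks on alternate contigs of other chromosomes; how reads from this interval were placed was not tested. The RING1 gene is thus a gene without a called peak in an interval almost without calls, and its value cannot be set beside that of RNF2 as a difference in binding.

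**Figure D3:**
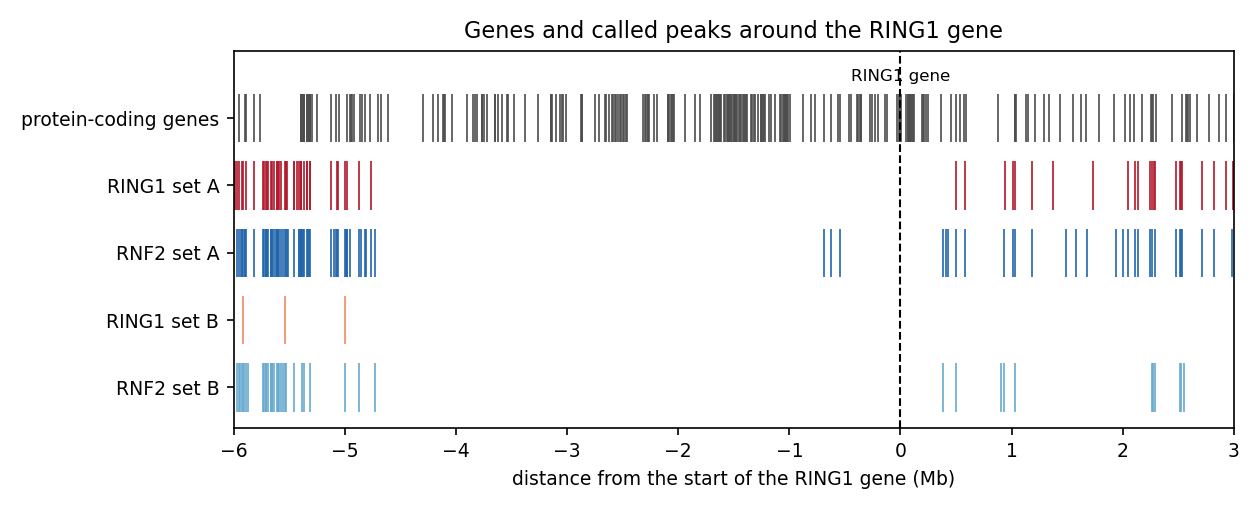
Midpoints of protein-coding genes and of called peaks from 6 Mb before to 3 Mb after the start of the RING1 gene (dashed line), with 1 row per list. Genes run through the whole window, while peaks stop for 5.11 Mb around the gene except for 3 of RNF2 in set A.

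RYBP and YAF2 are the paralogs of variant PRC1. RYBP (chromosome 3, 72374597 to 72446623, minus strand) had the highest fold enrichments of the 8 genes. Its RING1 peak of set A (72447163 to 72448635) had a fold of 5.31, above 87.6% of the list, and its RNF2 peak (72447264 to 72448598) had 5.51, above 86.0%. The −log10 q of 5.67 of that RNF2 peak was the only 1 among the 20 peaks to reach 5. Both peaks lay upstream of the gene, 540 bp and 641 bp from the start, and neither met the promoter window of 300 bases. RYBP thus enters through the 2 kb beyond the gene end and has no peak in its body. YAF2 (chromosome 12, 42157104 to 42238248, minus strand) had an RNF2 peak in set A from 42237538 to 42240056, over the start. At 2519 bp it was the widest of the 20 peaks, yet its fold of 3.46 lay above only 19.0% of the list, with a −log10 q of 1.77. This peak also covers the lncRNA gene LOC124902920. The nearest RING1 peak of set A lay 11915 bp from YAF2, at GXYLT1. In set B the nearest RNF2 peaks lay 64129 bp from RYBP and 244725 bp from YAF2.

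The polyhomeotic genes covered the range from the weakest calls to the 1 call found in both sets. PHC1 (chromosome 12, 8913843 to 8941467, plus strand) had only an RNF2 peak of set A (8913100 to 8914763, 1664 bp), which covers both annotated starts, 8913843 and 8914509. Its fold of 3.17 was above 2.88% of the list and its −log10 q was 1.35, so it lies near the limit of what was called. A peak at the neighbouring genes KLRG1 and M6PR was called for RING1 and RNF2 of set A and for RNF2 of set B, at 8081, 7871 and 7933 bp from PHC1, outside the 2 kb window and inside no alternative window tried. PHC3 (chromosome 3, 170087584 to 170181733, minus strand) had a RING1 peak (170181228 to 170181740, fold 4.30) that reached 7 bases upstream of the start. Its RNF2 peak (170180302 to 170181691, fold 3.83) began 42 bp downstream of the start. The first lay above 64.4% of the RING1 list and the other above 40.0% of the RNF2 list.

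PHC2 (chromosome 1, 33323626 to 33431095, minus strand, 107470 bp) had 4 RING1 and 5 RNF2 peaks in set A and 1 RNF2 peak in set B. At its upstream start, 33431095, RING1 of set A (33430609 to 33431808) had a fold of 4.41, RNF2 of set A (33429426 to 33431603) had 4.87 and RNF2 of set B (33430818 to 33431313) had 4.33. The set B peak lay above 80.7% of its list and was wholly inside both peaks of set A. The authors' consolidated file has 4255 regions, and PHC2 was the only member with one (33429425 to 33431808, 2384 bp). Of all genes, 22.8% had one. The region at PHC2 spans the RING1 and RNF2 peaks of set A at this start to within 1 base. It may have been made from these peaks and is not counted as separate evidence. At the internal start, 33349899, set A had a RING1 peak of 329 bp (fold 3.97) wholly inside an RNF2 peak of 750 bp (fold 4.51). Both lie just upstream of this start and reach into the annotated lncRNA gene PHC2-AS1. Another overlapping pair of set A lay in the gene body, 13895 and 13800 bp upstream of the internal start, with folds of 3.91 for RING1 and 4.55 for RNF2. The other 3 peaks of set A had folds of 3.56 for RING1 and 3.49 and 3.38 for RNF2, and no peak of the other antibody over them. By the sum of absolute log2 differences of the highest fold over the 3 lists with a peak, the genes most like PHC2 were CHAC1 (0.037), with folds of 4.46, 4.80 and 4.33 for RING1 of set A, RNF2 of set A and RNF2 of set B, and ANTXR2 (0.054), with 4.58, 4.86 and 4.32. They were the closest of 4091 other genes with peaks in exactly these lists.

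The promoter windows at both starts of PHC2 are shown because both carried overlapping peaks of both antibodies in set A, and that of the upstream start of PHC1 because it is the window with the fewest CpG dinucleotides among the members and lies under the weakest call. Capitals mark CpG dinucleotides, 5′ to 3′ in the direction of the gene (RefSeq, GRCh38.p14).
PHC2 upstream start, chr1:33431046-33431345, minus strand: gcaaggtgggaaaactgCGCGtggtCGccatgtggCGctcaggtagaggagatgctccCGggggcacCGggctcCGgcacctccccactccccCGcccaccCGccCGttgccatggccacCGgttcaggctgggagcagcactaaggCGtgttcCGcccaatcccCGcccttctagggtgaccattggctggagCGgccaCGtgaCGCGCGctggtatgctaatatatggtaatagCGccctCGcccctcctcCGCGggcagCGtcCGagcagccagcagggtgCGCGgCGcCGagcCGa
PHC2 internal start, chr1:33349850-33350149, minus strand: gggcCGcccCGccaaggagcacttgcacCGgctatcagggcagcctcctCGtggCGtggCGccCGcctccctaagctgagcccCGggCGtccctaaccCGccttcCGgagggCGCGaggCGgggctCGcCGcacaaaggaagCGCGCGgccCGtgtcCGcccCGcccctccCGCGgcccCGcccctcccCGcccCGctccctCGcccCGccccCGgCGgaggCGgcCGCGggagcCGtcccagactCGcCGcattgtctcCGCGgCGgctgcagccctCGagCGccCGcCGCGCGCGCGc
PHC1 upstream start, chr12:8913593-8913892, plus strand: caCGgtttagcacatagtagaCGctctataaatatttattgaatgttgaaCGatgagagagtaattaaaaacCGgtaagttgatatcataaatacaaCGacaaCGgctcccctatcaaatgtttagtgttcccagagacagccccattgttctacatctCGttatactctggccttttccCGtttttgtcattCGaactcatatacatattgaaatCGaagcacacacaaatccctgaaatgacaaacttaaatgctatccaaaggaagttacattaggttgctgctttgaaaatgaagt
They hold 30, 48 and 10 CpG dinucleotides, with CpG ratios of 0.842, 1.017 and 0.984. The G and C content of 37.0% at the upstream start of PHC1 was above that of 3.39% of the windows. The other start of PHC1 has 28 CpG dinucleotides and 72.3% G and C, and the same RNF2 peak meets both windows.

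SCMH1 (chromosome 1, 41027202 to 41242306, minus strand), at 215105 bp the longest of the 8 genes, had 1 RING1 peak (41241035 to 41242027) and 1 RNF2 peak (41240899 to 41241899), both in set A. They began 279 bp and 407 bp downstream of the start. Their folds of 3.45 and 3.75 lay above 14.1% and 36.1% of their lists. The rest of the gene had no peak, although SCMH1 is longer than 93.7% of protein-coding genes. The next gene with peaks was CTPS1, at 46289 bp for RING1 and 46127 bp for RNF2 of set A (folds 6.96 and 6.74) and at 46941 bp for RNF2 of set B (4.54).

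**Figure D4:**
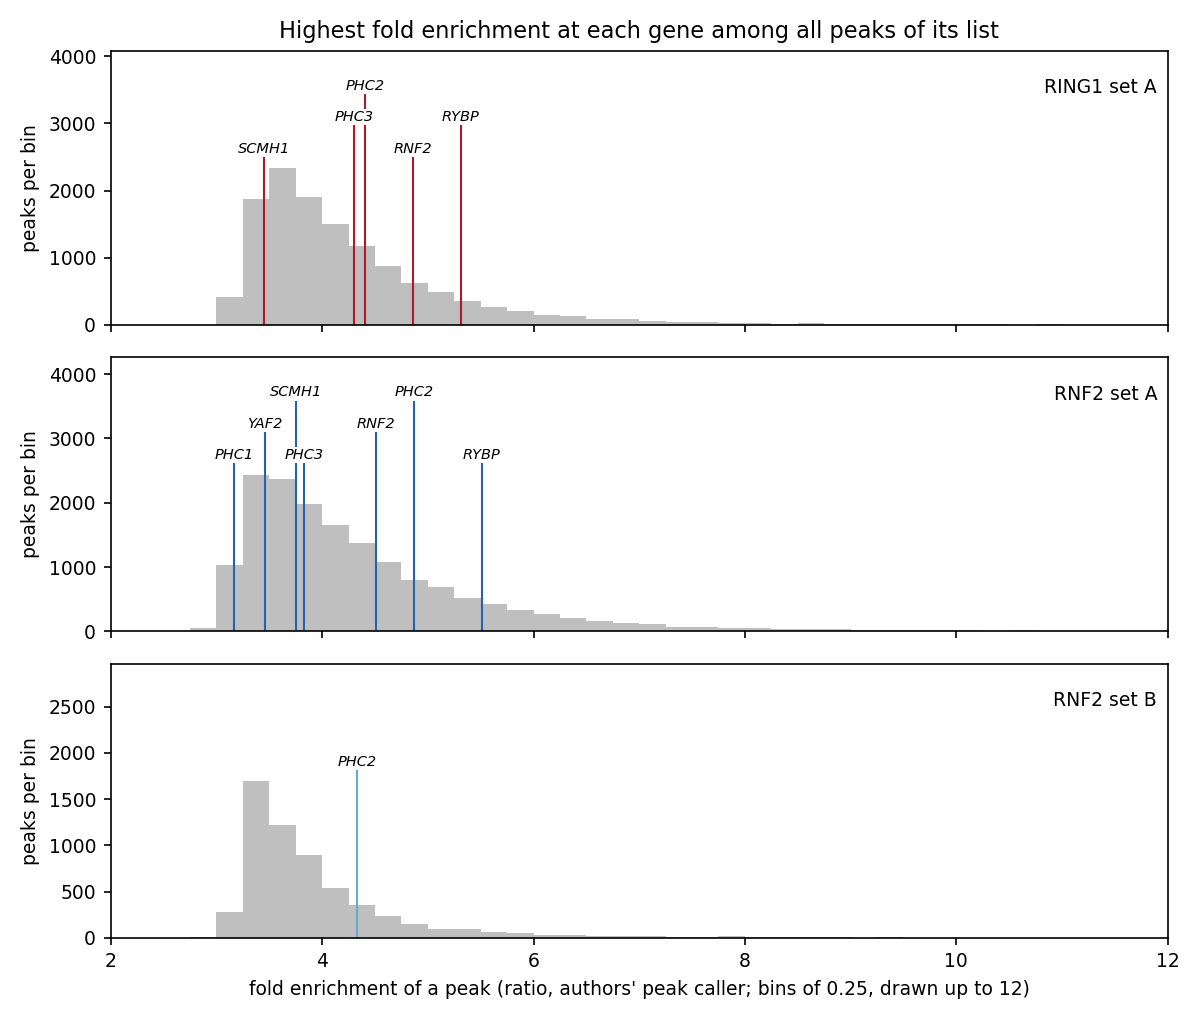
Highest fold enrichment at each gene (coloured lines) over the distribution of all peaks of the same list (grey bars, peaks per bin of 0.25), for RING1 of set A, RNF2 of set A and RNF2 of set B. In RNF2 of set A the 7 genes run from PHC1 at 3.17 to RYBP at 5.51, inside the bulk of a list whose highest value is 20.3.

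By fold, RYBP stood first among the members in both lists of set A. The highest fold per gene had a median of 4.41 over the 5 members with a RING1 peak in set A and of 4.20 over all 10108 such genes. For RNF2 of set A it was 3.83 over 7 members and 4.35 over 12159 genes. By this value RYBP ranked 1761 for RING1 and 2561 for RNF2, RNF2 ranked 2687 and 5346, and PHC2 ranked 4089 and 4115. For RNF2 of set B, PHC2 ranked 1255 of 5055 genes. Widths ran from 316 to 2519 bp, and the members that had a peak passed the caller's limit, so these medians describe called peaks only.

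Other genes of the pathway were taken from 5 lists. Canonical PRC1 genes (CBX and PCGF partners) carried RNF2 in both sets at 6 of 7 members, and variant PRC1 genes at 13 of 25, beside 23.9% of all genes. BMI1, a PCGF subunit gene, had RING1 folds of 10.9 (set A) and 4.68 (set B) and RNF2 folds of 15.7 (set A) and 7.10 (set B). CBX8, a chromodomain reader gene, had a RING1 fold of 8.11 in set A alone and RNF2 folds of 10.5 (set A) and 6.39 (set B). For PCGF1, a PCGF subunit gene of variant PRC1, the RING1 folds were 10.9 (set A) and 4.95 (set B) and the RNF2 folds 8.67 (set A) and 7.61 (set B). BCOR, the gene of a corepressor that partners with PCGF1, had RING1 folds of 10.1 (set A) and 4.86 (set B) and RNF2 folds of 13.8 (set A) and 6.25 (set B). These 4 genes, named because they lead their lists by RNF2, had higher folds than each of the 8 members in every list in which both had a peak. For RNF2 this follows largely from how they were picked. The folds of the whole pathway lists were not compared with those of the members. MGA was the remaining list gene with RING1 in set B. Of the 8 MBT and SAM domain relatives of SCMH1, RING1 and RNF2 of set A were at 6 and 7, beside 50.5% and 60.7% of all genes. RNF2 of set B was at 2 of the 8 (25.0%), close to the 25.2% of all genes: SFMBT2 (RNF2 6.78 and 4.61) and SFMBT1 (4.30 and 3.89). Of 12 PRC2 genes, encoding the methyltransferase complex of H3K27, 8 (66.7%) carried RING1 and 9 (75.0%) carried RNF2 in set A, beside 50.5% and 60.7% of all genes. RNF2 of set B was at 3 (25.0%), beside 25.2%, led by PHF19 (RNF2 5.94 and 3.66) and AEBP2 (3.52 and 3.48). Of 7 H2A deubiquitinase and ASXL genes, 5 (71.4%) had RING1 and 6 (85.7%) had RNF2 in set A, and 0 had either in set B, where 1.58% and 25.2% of all genes had one; USP16 had an RNF2 fold of 5.75 and BAP1 of 5.20. None of these counts was tested against the shares of all genes. Genes with a promoter CpG ratio of at least 0.75 had peaks more often than all genes. Their shares were 68.1% for RING1 of set A, 81.5% for RNF2 of set A and 33.5% for RNF2 of set B. The members and the pathway lists were not compared with such genes alone.

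**Figure D5:**
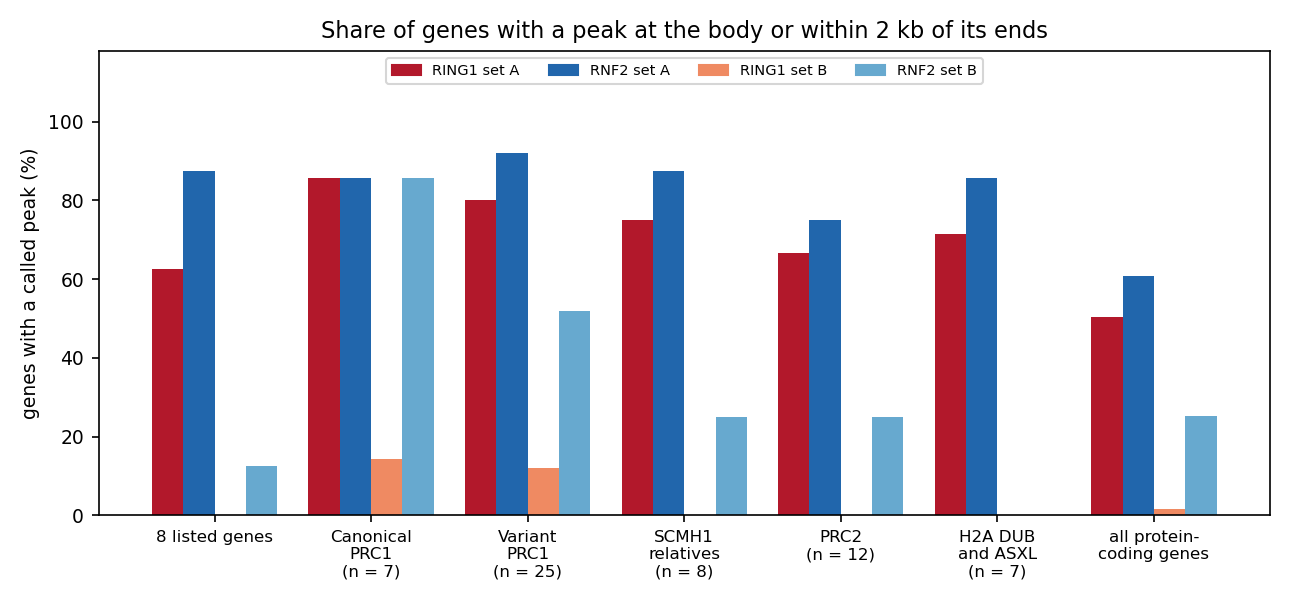
Share of genes (%) with a called peak in each of the 4 lists, for the 8 genes, for 5 lists of other Polycomb and H2A ubiquitin genes and for all protein-coding genes. In RNF2 of set B the 8 genes stand at 12.5%, canonical PRC1 at 85.7% and all protein-coding genes at 25.2%.

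The promoter windows of the members were searched on both strands for 4 short motifs. The GC box GGGCGG was present in 8 of 10 windows, PHC1 and PHC2 having 2 starts each, and in 56.3% of all 22174 windows. The E2F motif TTCCCGC was in the windows of RNF2 and SCMH1, beside 8.14% of all windows, and in RNF2 1 match overlaps a GC box. The E box CACGTG was in YAF2, PHC3 and the upstream start of PHC2, beside 8.34% of all windows, and the ETS motif CCGGAAGT was in 0 of 10, beside 5.33%. The windows of RYBP and of the upstream start of PHC1 held none of the 4 motifs. A match describes letters in a window and not a bound site. The CpG ratio was lowest at PHC3 (0.674) and RYBP (0.685), below the median of 0.737 over all windows. The window of the PHC1 start at 8914509 (0.727) was also below it. The peaks at RYBP lie outside its window, so this ratio does not describe the sequence under them.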

How the data were processed

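Libraries were prepared with the EpiCypher CUT&RUN kit for an Illumina NextSeq run, per the labels' protocols. For build hg38, the submitters' processing notes list MACS2 2.2.9.1, deepTools 3.5.2, BWA 0.7.17, Picard 2.8.1, SAMtools 1.9 and bedtools 2.30.0 and give neither their order nor their settings. The deposited lists are in broad peak format, 1 antibody and 1 set each. They were not pooled here, and their names do not give the replicate. The labels name IgG control libraries but not which control a list was called against. The fold per peak is the authors' ratio over background, used here only to rank and describe peaks of the same list. The deposited −log10 q starts just above 1 in every list. The deposited score column was not used, and the consolidated file has coordinates only.

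Peaks of the autosomes, X and Y were overlapped (at least 1 bp) with RefSeq gene bodies of GRCh38.p14, extended by 2 kb, and strand and starts came from RefSeq promoter windows. Where a gene had several peaks, the highest fold was used. Members and gene lists were chosen with earlier results of these data known, so no test was run, and counts of members are set beside the share over all protein-coding genes. All 8 members are named, with 2 genes per pathway list by RNF2 fold and the 2 genes nearest in pattern. The overlap step was tested on simulated peaks. Python 3.11.15, numpy 2.4.6, pandas 2.3.3 and matplotlib 3.10.9 were used.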

Additional observations from a re-analysis of the deposited data

How the results depend on the processing

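Counts of members held under 50 of 62 alternatives. Some of the counts were already 0, and a narrower window or a stricter list cannot lower 0. Such alternatives could not have moved these counts, so the 50 of 62 does not show that the counts are robust. The highest folds were the same under 26 of 26, but these only took the widest peak or windows at gene ends. Only PHC2 had more than 1 peak in a list, so at the other genes the widest peak was the highest by construction. Stricter lists were not tried for the folds, so the 26 of 26 does not show that the folds are robust. Windows of 0, 1 and 5 kb around the gene body, windows at gene ends or starts, the 50% overlap rules and merged peaks left every count within 1.5 times. With no extension, RYBP lost its peaks. Stricter lists changed the counts. At a −log10 q of at least 5, set A had RING1 at 0 and RNF2 at 1 member (RYBP), RNF2 of set B was at 0, RNF2 in both sets at 0, and overlapping RING1 and RNF2 peaks of set A at 0. When only the 659 peaks of highest significance were used from every list, all 5 of these counts were 0. Leaving out 1 set moved the members with RING1 in both sets between 0 and 5, and those with RNF2 in both sets between 1 and 7, since 1 list then stands alone. No paired analysis was possible because no test was run: each count describes the peaks called in a list. Depth is unknown, which limits what an uncalled peak shows.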

Other observations

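Of the pathway lists, 8 genes had no peak in any list. They were 1 of 7 canonical PRC1 genes, 2 of 25 variant PRC1 genes and 1 of 8 SCMH1 relatives. The rest were 3 of 12 PRC2 genes and 1 of 7 H2A deubiquitinase and ASXL genes. Over all protein-coding genes, 35.3% had no peak in any list, so such a gene was not more frequent in these pathway lists. The stretches between called peaks that hold the 8 genes differ widely in length. CSNK2B, a casein kinase subunit gene of variant PRC1, lies in a stretch of 4.05 Mb on chromosome 6 with 135 protein-coding genes, the most of any stretch between called peaks. PHF1, a PRC2 accessory subunit gene, lies in the stretch of the RING1 gene. PCGF2, the paralog of BMI1, and EPOP, a PRC2 cofactor gene, share a stretch of 3.09 Mb on chromosome 17 (35764990 to 38853351) with 55 protein-coding genes, of which 16 have a promoter CpG ratio of at least 0.75. The other 4 lie in stretches with few genes: CSNK2A2 in 106 kb with 1 gene, MYSM1 in 235 kb with 2, EED in 519 kb with 3 and L3MBTL4 in 833 kb with 1. These genes were named after their values were seen, and how reads were placed in these stretches was not tested.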
